A study of Mus musculus with 3 samples.

Results

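The nuclei described here are brown adipocyte (BA) nuclei of mouse interscapular brown adipose tissue (BAT), 4414 from a denervated library and 4355 from an untreated library, together 8769 of the 36281 nuclei kept in 3 libraries. A nucleus was kept when it had at least 200 detected genes and at most 50% of its unique molecular identifiers (UMIs, tags that count each captured RNA molecule once) from mitochondrial genes. It was taken as a BA nucleus when the UMIs of Adipoq, Plin1, Pparg, Cidea and Ppara summed to at least 3 and to at least 4 times the sum of the endothelial genes Pecam1, Flt1, Kdr, Ptprb, Cyyr1 and Adgrl4, with no UMI of the white adipocyte genes Slc7a10, Trhde, Nnat and Retn. Endothelial cell (EC) nuclei, 4512 untreated and 1564 denervated, serve as the background from the same libraries. Their endothelial sum was at least 3 and at least 4 times the adipocyte sum, with no limit on white adipocyte genes. No caller of doublets was run, and nuclei with UMIs of more than one of these classes were removed only by these rules.

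All 3 libraries came from BAT of wild-type adult C57Bl6 mice, named C57BL/6J in the study's methods, which give male mice 8 weeks old. The untreated and denervated libraries each pooled 20 mice, and the third library is labelled as sham-operated. In the study's procedure 5 branches of the left intercostal nerves were cut, tamoxifen was given, and BAT was taken at day 3, and the labels do not name tamoxifen for any library. Nuclei were isolated from the floating layer of digested BAT, which holds adipocytes with fragments of vessels, and captured on the BD Rhapsody whole-transcriptome system. With 1 library per condition, the condition and the library cannot be told apart, no test between conditions was made, and every interval given is a 95% interval for counting error only.

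BAT burns fuel to make heat. Sympathetic nerves release noradrenaline onto BAs, where the β3-adrenergic receptor raises cyclic AMP, protein kinase A drives the breakdown of stored triglyceride, and the fatty acids set free both fuel mitochondria and open the proton channel UCP1. Brown adipocytes also make fatty acids from glucose by de novo lipogenesis, and cutting the nerves removes the noradrenaline while leaving an operated, injured tissue.

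BA nuclei of the denervated library were shallower than those of the untreated library, with a median of 943 against 1788 UMIs per nucleus, and the sham library lay between them at 1327. In sum they held 4622380, 7886130 and 4300932 UMIs without mitochondrial genes in the denervated, untreated and sham libraries. The libraries shared 251 to 278 barcodes in each pair, of which 15 to 26 were BA nuclei in both. The run name in the header of the denervated table holds "nKO" and that of the untreated table "nC", and the groups used here follow the labels. The 5 genes of the adipocyte sum, which chose the nuclei, were at 216 and 174 CPM for Adipoq, 1672 and 1755 for Plin1, 2391 and 3069.6 for Pparg, 1437 and 1804 for Cidea, and 927 and 1607 for Ppara in untreated and denervated nuclei, where CPM is a gene's UMIs scaled to the total of the class, so that libraries of unequal size can be set side by side. The nuclei just inside the rule, with a sum of exactly 3, numbered 130 untreated and 407 denervated, and those just outside it, with a sum of 2, numbered 164 and 402. Of the sham library 3163 nuclei met the rule, and this library stood apart from both others, so its values are printed beside the main results.

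Most genes were close to equal in denervated and untreated BA nuclei. Of 7377 genes with a mean of at least 20 CPM over the 2 libraries, 85.8% had a log2 ratio of denervated over untreated within 0.5 of 0, and the median ratio was −0.04. A ratio of at least 2-fold was reached upward by 91 genes (1.23%) and downward by 24 genes (0.325%). In EC nuclei the same genes were at least 2-fold higher in 4.18% and lower in 2.17%, from a smaller number of UMIs. Against the sham library, which stands apart from both, the denervated BA nuclei were at least 2-fold higher in 6.67% and lower in 5.84% of these genes, and sham over untreated gave 5.50% and 6.28%. Both comparisons of denervated nuclei use the same denervated library, so a gene that is high in it is high in both.

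Of the 91 genes on the higher side 40 were below 20 CPM in untreated nuclei, so that they reached the mean only through the denervated library and had to be higher in it, and 10 of the 24 on the lower side were below 20 CPM in denervated nuclei in the same way. Of the 6943 genes at or above 20 CPM in both libraries, 51 were at least 2-fold higher and 14 lower.

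Of the 91 genes, 36 had an interval wholly past 2-fold, 50 were past 2-fold over the sham library as well, and 43 were past 2-fold in EC nuclei, where their median log2 ratio was 0.98. Of the 24 genes on the lower side, 1 had an interval wholly past 2-fold, 10 were past 2-fold against sham and 4 in EC nuclei, with a median of −0.48 there. The plot of denervated against untreated levels shows that the higher side holds genes of every level up to that of Cox6a1, and the lower side none above that of Dusp6.

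**Figure D1:**
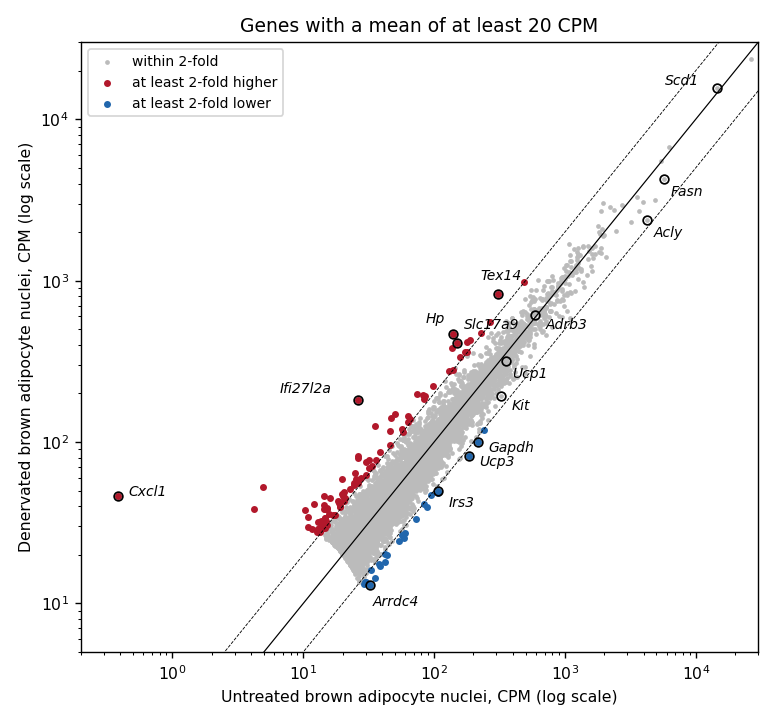
CPM of 7377 genes in untreated (horizontal) and denervated (vertical) BA nuclei, both on log scales, with the line of equality and dashed lines at 2-fold; 91 genes lie above the upper and 24 below the lower dashed line. Cxcl1 lies farthest from equality at 0.380 against 46.1 CPM, while Adrb3, Ucp1 and Scd1 lie close to it.

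Among acute-phase and chemokine genes, 4 of the 10 with at least 20 CPM in both libraries were at least 2-fold higher in denervated nuclei, against 51 of the 6943 such genes and 1.23% of all genes compared. These genes are switched on in injured or inflamed tissue, many through the cytokine-activated factors STAT3 and NF-kB. Of 37 genes in the list, 34 were in both tables, and 11 were compared. Cxcl1, described next, passed the minimum level only through the denervated library, where it had to be higher. The median log2 ratio was 0.51 without Cxcl1 and 0.60 with it, beside −0.04 over all genes, and with it the median was 0.97 in EC nuclei and 0.56 over sham.

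Cxcl1, a chemokine that attracts neutrophils, was at 0.380 CPM (interval 0.0785 to 1.11) in untreated, 5.12 CPM (3.21 to 7.74) in sham and 46.1 CPM (40.1 to 52.7) in denervated BA nuclei. This is 3 UMIs against 213, a log2 ratio of 6.92 (5.35 to 9.21). After each nucleus was thinned to 500 UMIs, 1.78% of denervated nuclei (1.40 to 2.23%) and 0.0235% of untreated nuclei held a Cxcl1 UMI, against 3.01% and 0.0689% unthinned. Why these shares were low was not tested. In EC nuclei Cxcl1 went from 3.24 to 70.2 CPM, and in the denervated barcodes with fewer than 200 genes, taken as free RNA, it was at 73.8 CPM, higher than in the BA nuclei themselves. Ambient RNA, estimated from the endothelial genes, was 1.81% of the UMIs of denervated BA nuclei. The rule for BA nuclei limits these same genes, which holds the estimate low. The part of ambient RNA in the Cxcl1 ratio was not tested.

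Saa3, Lcn2, Ccl2 and Ccl7 were below the minimum level and were named after their values had been seen. Saa3, an acute-phase serum amyloid that adipocytes can secrete, had 4 UMIs in untreated and 117 in denervated nuclei, 0.507 and 25.3 CPM, with 0.465 in sham, a log2 ratio of 5.64 (4.25 to 7.54). The monocyte chemokine Ccl2 had 1 against 25 UMIs, a log2 ratio of 5.41 (2.80 to 10.77). Its neighbour Ccl7 and the iron-carrier binding protein Lcn2 had none in untreated nuclei and 32 and 20 in denervated nuclei, which puts their log2 ratios at 4.19 and 3.51 or more when the untreated library is set to a floor of 3 counts. These genes were also high in denervated EC nuclei, with Ccl2 at 31.2 CPM against 5.41 in BA nuclei.

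Hp (chr8:109575128-109579172, − strand, GRCm38), which encodes haptoglobin, a haemoglobin-binding plasma protein that adipocytes also make, was the acute-phase gene with the most UMIs behind its ratio. It was at 140.1 CPM (132 to 149) in untreated, 203 (189.5 to 217) in sham and 469 (449 to 489) in denervated BA nuclei, so the denervated library was the highest of the 3. The log2 ratio was 1.74 (1.64 to 1.85) over untreated and 1.21 over sham. The thinned share of nuclei with a UMI was 18.8% in denervated and 5.96% in untreated BA nuclei. In EC nuclei the thinned shares were 24.9% and 3.30% and the log2 ratio 3.16 was larger than in BA nuclei by 1.41 with an interval that excludes 0, and barcodes with few genes held 482 and 139 CPM.

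Stat3, the transcription factor that relays IL-6-family cytokines, was at 130.0, 234 and 277 CPM in untreated, sham and denervated BA nuclei, a log2 ratio of 1.09 (0.97 to 1.21) over untreated and of 0.24 over sham. In EC nuclei it was 0.43, lower than in BA nuclei by 0.66 (0.46 to 0.87). The metallothionein Mt1, which binds zinc, was at 97.6, 217 and 221 CPM, and Cp, the copper-carrying ferroxidase, at 33.5, 82.5 and 71.4 CPM. For these 3 genes the sham library was close to the denervated one. Il1r1 and Osmr, receptors for interleukin 1 and oncostatin M, were too low for the filter, at 12.4 and 10 CPM in untreated, 9.77 and 9.77 in sham and 26.6 and 26.0 in denervated nuclei. Stat3 moved to 0.51 when nuclei of both libraries were matched on UMIs per nucleus, and Stat3 and Cp were both at 0.82 in nuclei with an adipocyte sum of at least 6, so that under this setting Hp and Mt1 were the 2 of the 4 that stayed past 2-fold.

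The plot of levels by library places these genes beside the metabolic genes described further on.

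**Figure D2:**
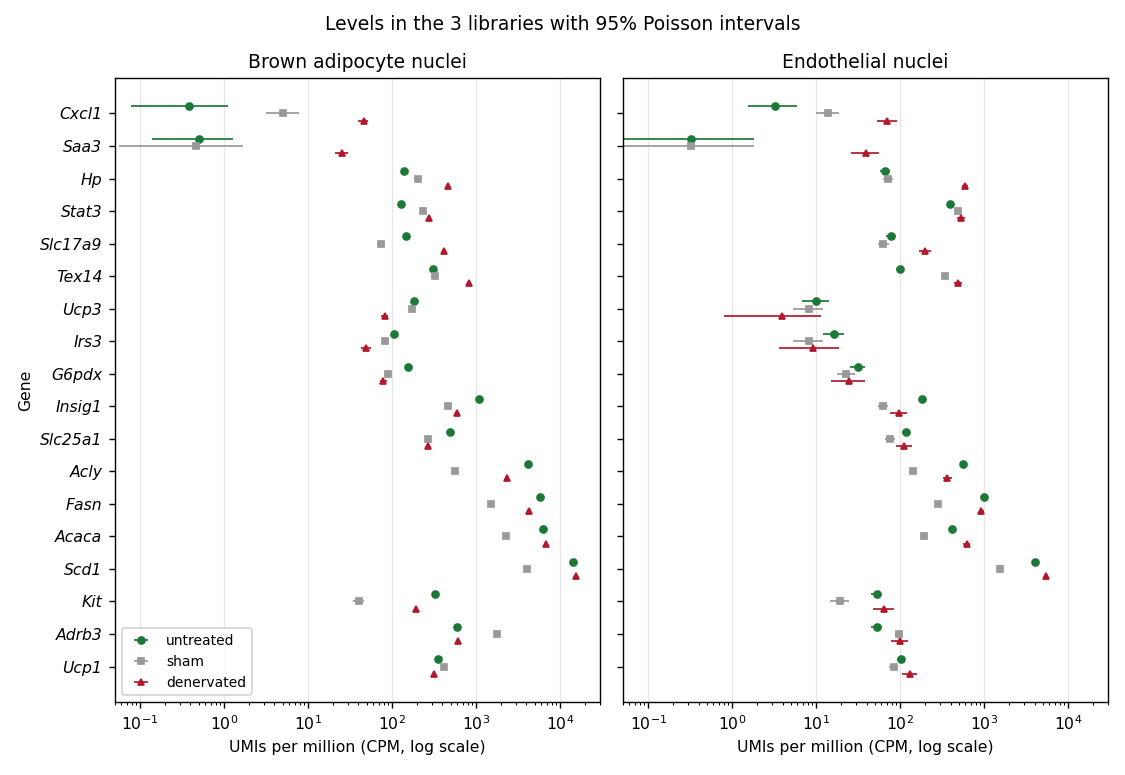
CPM (log scale) of 18 genes in BA nuclei (left) and EC nuclei (right) of the untreated, sham and denervated libraries, with 95% Poisson intervals as bars. In BA nuclei Cxcl1, Saa3, Hp, Slc17a9 and Tex14 were highest in the denervated library and Ucp3 and Irs3 lowest, while for Acly, Fasn, Acaca, Scd1, Kit and Adrb3 the sham library lay outside the other 2.

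The stretches of 120 bases before the RefSeq transcript start on GRCm38.p6 are shown for 3 of the genes described here, Cxcl1 and Saa3, which were higher, and Ucp3, which was lower in denervated nuclei, since of 11 genes whose stretch was searched they are the ones that held a match to a motif of NF-kB, C/EBP or STAT factors. The other 8 were Lcn2, Stat3, Irs3, Acly, Slc25a1, Fasn, G6pdx and Insig1. The stretches printed are the + strand of chr5:90891125-90891244 for Cxcl1, the − strand of chr7:46715677-46715796 for Saa3 and the + strand of chr7:100472871-100472990 for Ucp3, read 5′ to 3′ with matches in capitals.
Cxcl1: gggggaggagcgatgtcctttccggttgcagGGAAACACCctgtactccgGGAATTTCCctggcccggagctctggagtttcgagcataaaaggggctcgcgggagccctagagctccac
Saa3: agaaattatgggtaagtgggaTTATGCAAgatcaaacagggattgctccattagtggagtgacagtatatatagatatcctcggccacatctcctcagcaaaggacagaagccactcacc
Ucp3: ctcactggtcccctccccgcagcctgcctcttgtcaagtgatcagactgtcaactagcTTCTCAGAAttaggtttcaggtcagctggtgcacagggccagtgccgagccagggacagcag
The motifs searched on both strands were GGNNTTTCC for NF-kB, TTGCNNAA for C/EBP and TTCNNNGAA for STAT factors. Cxcl1 held the first at 70 and 89 bases before the start, Saa3 the C/EBP motif at 99 and Ucp3 the STAT motif at 62. Over the 250 bases before the start, 5.62%, 10.8% and 8.13% of all 27025 RefSeq promoters held the NF-kB, C/EBP and STAT motifs, and 6.17%, 8.56% and 6.69% of the 5863 that belong to compared genes. Of the 91 higher genes 67 had a promoter, and 3, 8 and 7 of them held these motifs. Of the 24 lower genes 17 had one, and 2 held each motif. A match is a stretch of letters and says nothing of binding.

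Interferon-stimulated genes had ratios above 0 in BA nuclei, mostly of less than 2-fold. Of 22 genes in the list 9 were compared, and all 9 had a ratio above 0, as had 3319 of all 7377 genes. Of the 9, 7 had an interval wholly above 0, a count not made over all genes. One of them, Rsad2, was past 2-fold, against 1.23% of all genes. Rsad2 and Bst2 were below 20 CPM in untreated nuclei and passed only through the denervated library, and the median of the other 7 was 0.47. The median log2 ratio of the 9 was 0.62 over untreated and 0.56 over sham in BA nuclei, and −0.07 over untreated in EC nuclei. In 6 of the 9 the BA ratio was above the EC ratio with an interval that excludes 0. This held for 8.87% of all genes compared and 15.0% of those with a BA ratio above 0.

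The member past 2-fold was Rsad2, which encodes the antiviral enzyme viperin. It was at 19.7 CPM in untreated, 31.9 in sham and 47.4 in denervated BA nuclei, a log2 ratio of 1.27 (0.97 to 1.58), beside −0.24 (−0.40 to −0.08) in EC nuclei, where its level was far higher at 598 and 507 CPM. In nuclei with an adipocyte sum of at least 6 the BA ratio was 0.96, below 2-fold. Irf1, a transcription factor of the interferon response, had a log2 ratio of 0.83, B2m, the light chain of MHC class I, 0.62, the RNA sensor Ddx58 0.79, and Bst2, a virus tether, 0.73. Over sham these 4 were at 0.56, 0.04, 1.26 and 1.23. Stat2, which helps carry the interferon signal, had a ratio of 0.02. The list's median was 0.31 in nuclei without UMIs of the heat shock genes Hspa1a, Hspa1b or Dnajb1.

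Ifi27l2a, an interferon-inducible mitochondrial protein gene outside that list, had the largest ratio among genes with at least 50 CPM. It was at 26.2 CPM (22.8 to 30.1) in untreated, 219.7 (206 to 234) in sham and 183 (171 to 196) in denervated nuclei. The log2 ratio was 2.80 (2.58 to 3.03) over untreated and −0.27 over sham. Both operated libraries were thus above the untreated library, and the sham library was the highest. In EC nuclei the ratio was 2.45, and barcodes with few genes held 110.3 and 261 CPM in untreated and denervated.

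Immediate early genes, which respond within minutes to cell stimulation and also to tissue dissociation, had a median log2 ratio of 0.32 over the 19 of 24 compared, with 4 at least 2-fold higher and none lower by that much, against 1.23% and 0.325% of all genes. Of the 4, Fosb was below 20 CPM in untreated nuclei and passed only through the denervated library. The median was 0.70 in EC nuclei and 0.02 over sham, and in nuclei matched on UMIs it was −0.03, where the sign turned. Junb, a subunit of the AP-1 factor, was at 45.6, 107 and 117 CPM in untreated, sham and denervated BA nuclei, a log2 ratio of 1.35 (1.16 to 1.55). Its partner Fosb was at 14.3, 207 and 40.9 CPM, so the sham library was far above the denervated one. The matricellular gene Cyr61 was at 189, 406 and 429.6 CPM, and its ratio of 1.18 became −0.12 in nuclei matched on UMIs, where Junb was at 0.85 and Fosb at 0.86. Zfp36, which promotes decay of cytokine mRNAs, had a ratio of 1.08 over untreated, 0.67 without nuclei that held heat shock UMIs, and −0.75 over sham. Zbtb16, a glucocorticoid-responsive transcription factor, showed the same order, with 57.7, 649 and 116 CPM and a ratio of 0.68 after matching.

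All of the 10 highest genes by rule were higher in denervated EC nuclei as well, with intervals above 0. Their EC log2 ratios ran from 0.48 for Rpl39 to 3.16 for Hp. Slc17a9, the vesicular ATP transporter, was at 149 CPM (140.5 to 158) in untreated, 75.3 (67.4 to 84.0) in sham and 414 (395 to 433) in denervated BA nuclei, a log2 ratio of 1.47 (1.37 to 1.58). Its EC ratio was 1.34, and barcodes with few genes held more of it than either class, 1125 CPM in untreated and 695 in denervated. The thinned share of BA nuclei with a UMI was 6.78% in untreated, 4.12% in sham and 18.1% in denervated, so the denervated library was the highest in nuclei by share and by level.

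Tex14, a gene known for intercellular bridges of germ cells, was at 308, 329 and 826 CPM in the untreated, sham and denervated libraries. Its log2 ratio of 1.42 (1.35 to 1.5) stood beside 2.29 in EC nuclei and 0.54 in nuclei matched on UMIs. The zinc finger gene Zfp791 had a ratio of 1.56 in BA and 1.89 in EC nuclei, and 0.44 after matching. Wdr89 and the long noncoding RNA C86187 had ratios of 1.41 and 1.65 in BA nuclei, beside 1.74 and 1.64 in EC nuclei. All 4 were also above the sham library, by 1.33, 1.91, 1.24 and 3.01.

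Ribosomal protein genes and genes of great length stood higher in the denervated library in both classes of nuclei. Ribosomal protein genes summed to 5541, 6358 and 8804 CPM in untreated, sham and denervated BA nuclei and to 14377, 14498 and 19109 CPM in EC nuclei. Of 74 such genes 69 had a BA ratio above 0 and 11 were at least 2-fold higher, against 45.0% and 1.23% of all genes compared, with a median of 0.49 in BA and 0.36 in EC nuclei. Rpl39 and Rplp2, with ratios of 1.60 and 1.47, belong to them. Genes that span at least 500 kb took 2.91%, 2.50% and 3.52% of UMIs in untreated, sham and denervated BA nuclei, and 15 of 166 (9.04%) were at least 2-fold higher, against 1.23% of all genes, with a median of 0.49 in BA and 0.55 in EC nuclei. Of these 15 genes 10 were below 20 CPM in untreated nuclei and passed only through the denervated library, which leaves 5 of the 139 long genes at or above 20 CPM in both libraries, beside 51 of all 6943. Among the 11 ribosomal protein genes 1 had passed in that way. Among the 50 genes past 2-fold over both other libraries, 14 were of that length. Cox6a1, a subunit of cytochrome c oxidase and the 1 gene of 31 in the respiratory list past 2-fold, was at 489.6, 486 and 981 CPM, with a ratio of 1.0 in BA and 1.13 in EC nuclei. What these classes contribute to the other ratios was not tested.

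On the lower side the gene with the clearest difference was Ucp3 (chr7:100472990-100486432, + strand). It encodes a mitochondrial carrier related to UCP1 that is expressed in muscle and BAT and follows fatty acid supply. Ucp3 was at 185 CPM (176 to 195) in untreated, 172 (159 to 184) in sham and 82.0 (73.9 to 90.7) in denervated BA nuclei. The denervated library was below both others, with log2 ratios of −1.17 (−1.34 to −1.01) over untreated and −1.07 over sham, and this was the 1 lower gene whose interval lay wholly past 2-fold. The ratio was −0.85, −1.06 and −0.86 in nuclei of 500 to 1000, 1000 to 2000 and 2000 to 4000 UMIs. The thinned share of nuclei with a UMI was 8.0% in untreated, 7.49% in sham and 3.78% in denervated BA nuclei, against 0.285%, 0.499% and 0.187% in EC nuclei.

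Irs3, a rodent insulin receptor substrate of adipocytes, was at 107, 83.9 and 49.5 CPM in untreated, sham and denervated BA nuclei, a log2 ratio of −1.12 (−1.33 to −0.90), which was −0.70 in nuclei matched on UMIs. Cabcoco1, a gene of the calcium-binding coiled-coil kind, was at 87.7, 85.8 and 39.8 CPM, a ratio of −1.14. Both were lowest in the denervated library. Sod3, the extracellular superoxide dismutase, Gas1, a growth-arrest gene, and Hist1h1c, a linker histone gene, had ratios of −1.13, −1.01 and −1.02, which became −0.37, −0.42 and −0.55 in nuclei matched on UMIs, and of −0.59, −0.64 and −0.91 over sham.

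Dusp6 and Gapdh were past 2-fold lower against the untreated library only. Dusp6, a phosphatase that ERK signalling induces and that switches ERK off, was at 240.3, 38.6 and 118 CPM in untreated, sham and denervated BA nuclei, a log2 ratio of −1.02 (−1.16 to −0.88) over untreated, −0.60 in nuclei matched on UMIs and 1.62 over sham. Its EC ratio was 0.23 and the difference of BA and EC ratios was −1.25 (−1.57 to −0.93). Gapdh, a glycolytic enzyme, was at 217, 135 and 101 CPM, and its ratio of −1.11 became −0.63 after matching. Bhlhe41, a repressor of the circadian clock that passed the minimum level only through the untreated library, had a ratio of −1.18 over untreated, −0.74 after matching and 1.74 over sham. Arrdc4, a glucose-induced gene of the arrestin family named after its values had been seen, was at 32.2, 4.19 and 13.0 CPM.

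Rgs5, a marker of pericytes, was lower in denervated BA nuclei and higher in denervated EC nuclei. In BA nuclei it was at 108, 278 and 48.5 CPM in untreated, sham and denervated, a ratio of −1.15 (−1.37 to −0.94), and in EC nuclei the ratio was 0.72 (0.58 to 0.86). The BA ratio was −0.76 in nuclei with an adipocyte sum of at least 6. The other 4 pericyte markers summed to 98.0, 272 and 75.7 CPM in untreated, sham and denervated BA nuclei, and all 5 to 206, 549.9 and 124 CPM.

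G6pdx, the first enzyme of the pentose phosphate pathway and thereby a source of the NADPH used in fatty acid synthesis, was at 157 CPM (149 to 166) in untreated, 89.5 (80.8 to 98.9) in sham and 79.4 (71.5 to 87.9) in denervated BA nuclei. The log2 ratio was −0.99 (−1.16 to −0.82) over untreated and −0.17 over sham. Pgd, the next NADPH-making enzyme, and H6pd, its relative in the endoplasmic reticulum, had ratios of −0.75 (−0.85 to −0.66) and −0.80 (−0.92 to −0.68) over untreated and of 0.64 and 0.27 over sham, and were named after their values had been seen. Tkt and Taldo1, of the non-oxidative branch, were at 0.11 and −0.11.

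The fatty acid synthesis list had the lowest median of the 26 lists when all BA nuclei were used. None of the list's members was past 2-fold, against 1.23% higher and 0.325% lower of all genes. In nuclei matched on UMIs its median was −0.13, and those of hypoxia-responsive genes and heat shock chaperones were lower at −0.26 and −0.59. Of 20 genes 17 were compared, and 13 had a ratio below 0, as had 4058 of all 7377 genes. Each of the 13 had an interval that excludes 0, a count not made over all genes. Intervals are narrow for genes with many UMIs, as several of these have. The median log2 ratio was −0.48, beside −0.04 over all genes. In EC nuclei the median was −0.06. In 11 of the 17 the BA ratio was below the EC ratio with an interval that excludes 0. This held for 11.5% of all genes compared and 13.8% of those with a BA ratio below 0. Over the sham library the median was 1.48, in the other direction, and the sham nuclei were the lowest of the 3 libraries in most of these genes.

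Acly (chr11:100476353-100528000, − strand), which splits citrate into the acetyl-CoA that starts fatty acid synthesis, was at 4215 CPM (4169.6 to 4260.3) in untreated, 572 (549 to 595) in sham and 2383 (2338 to 2427) in denervated BA nuclei. The log2 ratio was −0.82 (−0.85 to −0.79) over untreated and 2.06 over sham. The thinned share of BA nuclei with an Acly UMI was 82.6% in untreated, 22.1% in sham and 60.8% in denervated. The EC ratio was −0.60 (−0.79 to −0.42), and free RNA in barcodes with few genes held 1011 and 381 CPM, so the gene was lower in all 3 of these fractions of the denervated library.

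Slc25a1, the carrier that brings citrate out of mitochondria for Acly, was at 494, 271 and 267 CPM in untreated, sham and denervated BA nuclei, a ratio of −0.89 (−0.98 to −0.79) beside −0.06 in EC nuclei. Insig1, a sterol-regulated brake on SREBP processing, was at 1095, 468 and 589.5 CPM, a ratio of −0.89 in BA and −0.89 in EC nuclei. In both genes the sham level was close to or below the denervated one. The elongases Elovl5 and Elovl6 had ratios of −0.74 and −0.62 over untreated and 0.50 and 0.18 over sham. Over untreated, Mid1ip1 and Thrsp, which activate acetyl-CoA carboxylase and lipogenesis, had −0.76 and −0.57, the malic enzyme Me1 −0.49 and the ChREBP gene Mlxipl −0.45.

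Fasn, the fatty acid synthase, was at 5734, 1530.4 and 4276 CPM in untreated, sham and denervated BA nuclei, a log2 ratio of −0.42 (−0.45 to −0.40). Acaca, the acetyl-CoA carboxylase that makes malonyl-CoA, was at 6282, 2319.5 and 6759 CPM, a ratio of 0.11 (0.09 to 0.13). Scd1, the desaturase that makes monounsaturated fatty acids, was at 14423, 4043 and 15595 CPM, a ratio of 0.11 (0.10 to 0.13). The pathway was therefore split, with Acly and Fasn lower and Acaca and Scd1 slightly higher than in the untreated library, and all 4 above the sham library by 2.06, 1.48, 1.54 and 1.95.

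These values differed in nuclei matched on UMIs, 2282 from each library, and the cause was not tested. In the matched nuclei Fasn was at −0.03, Acly at −0.53, Scd1 at 0.62 and Acaca at −0.13. Within nuclei of 500 to 1000, 1000 to 2000 and 2000 to 4000 UMIs, 13 of the 17 genes were below 0 each time, with medians of −0.40, −0.13 and −0.22. Over all genes with UMIs in both libraries the medians in these ranges were 0.004, −0.019 and −0.025. The share of all genes below 0 was not counted there. Acly was lower in all 3 ranges, at −0.73, −0.55 and −0.65, and so were Insig1, Slc25a1 and G6pdx, whereas Scd1 was higher in all 3, at 0.18, 0.60 and 0.43. The share of nuclei with a UMI of Hspa1a, Hspa1b or Dnajb1 differed within these ranges too, at 53.5%, 49.5% and 53.3% of untreated and 48.4%, 37.2% and 42.9% of denervated nuclei. The plot by UMIs per nucleus shows the ratios in the 3 ranges beside those of all nuclei.

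**Figure D3:**
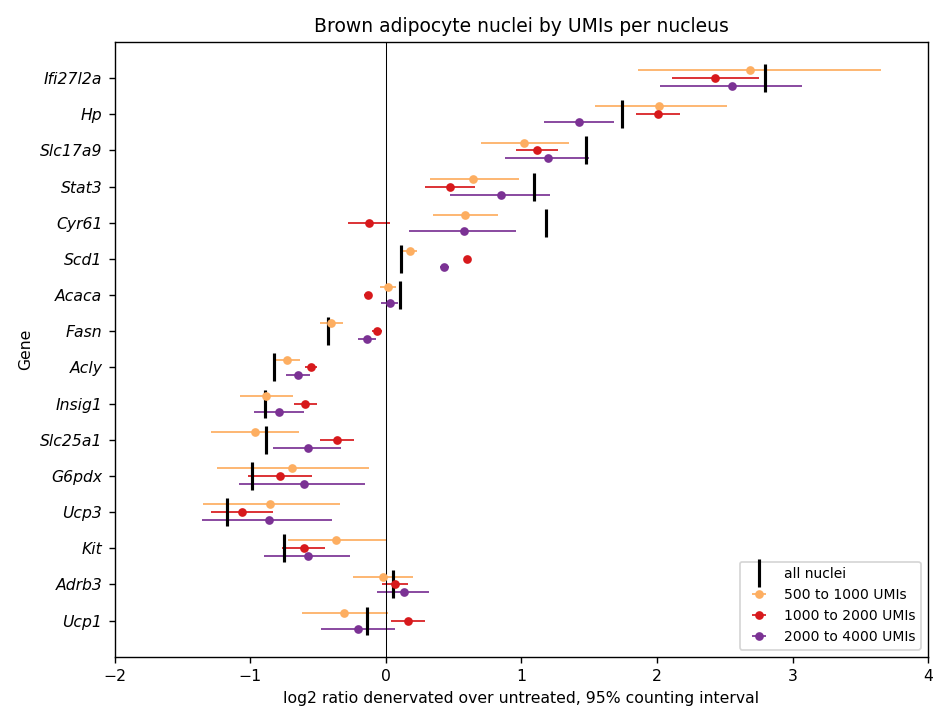
Log2 ratio of denervated over untreated BA nuclei with 95% counting intervals for 16 genes, in nuclei of 500 to 1000, 1000 to 2000 and 2000 to 4000 UMIs (points), and in all nuclei (black bars). Acly, Insig1, Slc25a1, G6pdx and Ucp3 lie below 0 in each range and Hp, Ifi27l2a and Slc17a9 above 1, while Fasn is at −0.40, −0.06 and −0.14, and Acaca, Adrb3, Cyr61 and Ucp1 change sign.

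Genes of adrenergic signalling and thermogenesis went both ways in denervated BA nuclei, by less than 2-fold in those with enough counts to compare. Of 34 adrenergic and cAMP genes 28 were compared and of 25 thermogenic genes 21. None was past 2-fold, against 1.23% higher and 0.325% lower of all genes, so lists of this size could hold none without differing from all genes. The median log2 ratios were 0.01 and 0.08 in BA nuclei and 0.30 and 0.27 in EC nuclei. Ratios ran from −0.60 to 0.86 in the adrenergic list, where 9 genes were above and 6 below 0 with intervals that exclude 0. In the thermogenic list they ran from −0.64 to 0.82, with 11 above and 8 below 0 in the same sense. Such counts were not made over all genes. Ucp1 was at 353 CPM (339.7 to 366) in untreated, 422 (403 to 442) in sham and 319.7 (304 to 336) in denervated BA nuclei. Its log2 ratio was −0.14 (−0.23 to −0.05), and 0.14 in nuclei matched on UMIs, where the sign turned. The thinned share of BA nuclei with a Ucp1 UMI was 14.3% in untreated, 16.9% in sham and 13.1% in denervated, beside 4.95%, 3.87% and 7.68% of EC nuclei. Thinning kept 534 of the 1564 denervated EC nuclei, the deeper ones, and without it the BA shares were 36.3%, 32.3% and 22.3% and the EC shares 6.29%, 4.76% and 5.63%, in another order than the thinned ones.

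Adrb3, the β3-adrenergic receptor, was at 592 CPM (575 to 609) in untreated and 614 (592 to 637) in denervated nuclei, a log2 ratio of 0.05 whose interval of −0.01 to 0.12 holds 0. In sham nuclei it was at 1793 CPM, so the ratio of denervated over sham was −1.54. Among thermogenic genes Dio2, which activates thyroid hormone, had a ratio of 0.74 from 22.2 and 37.0 CPM, the cofactor Ppargc1a 0.03, and the subunits Cox7a1 and Cox8b 0.64 and 0.62, while the developmental factors Zic1 and Lhx8, below the minimum level, had −0.79 and −0.95. Elovl3, an elongase induced by cold, was below it as well at 11.9, 15.1 and 3.89 CPM in untreated, sham and denervated nuclei, a ratio of −1.61 (−2.43 to −0.88). Nr4a1, a nuclear receptor induced by cAMP and by stress, had 0.86 in BA and 1.31 in EC nuclei.

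Kit (chr5:75574916-75656722, + strand), the receptor for stem cell factor, was at 326 CPM (313 to 338) in untreated, 40.5 (34.7 to 46.9) in sham and 194 (181 to 207) in denervated BA nuclei. The denervated library thus lay below the untreated one, with a log2 ratio of −0.75 (−0.86 to −0.64), and above the sham one, with a ratio of 2.26. The thinned share of BA nuclei with a Kit UMI was 13.9% (12.9 to 15.0%) in untreated, 1.77% (1.33 to 2.30%) in sham and 8.61% (7.77 to 9.51%) in denervated, beside 2.60%, 0.921% and 3.75% of EC nuclei. Unthinned, the shares were 38.4%, 4.74% and 16.2% of BA nuclei and 3.28%, 1.15% and 2.94% of EC nuclei, where the order of untreated and denervated turned. Median UMIs of BA and EC nuclei were 1788 and 656 in untreated, 1327 and 538 in sham and 943 and 405 in denervated. In nuclei matched on UMIs the Kit ratio was −0.50. The KIT signalling list, which holds Kit itself, had 13 of 16 genes compared and a median of 0.06. None of them was past 2-fold, against 1.23% higher and 0.325% lower of all genes. The ligand gene Kitl was at 27.0, 57.0 and 41.3 CPM in BA nuclei.

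The metabolic lists described next had medians from −0.36 for cholesterol to 0.11 for fatty acid uptake, beside −0.04 over all genes. Over all genes compared, 55.0% had a ratio below 0. In the cholesterol list 12 of 13 compared genes had one, with a median of −0.36 over untreated and 0.74 over sham in BA nuclei and −0.10 over untreated in EC nuclei, and Sqle, the squalene epoxidase, was lowest at −0.97. In the list of glucose use and glycogen 17 of 25 were below 0, with a median of −0.23 over untreated and 0.52 over sham. In nuclei matched on UMIs the cholesterol median was −0.10 and that of glucose use 0.06, on the other side of 0. Slc2a4, the insulin-regulated glucose transporter, was at 719, 291 and 458 CPM in untreated, sham and denervated nuclei, a ratio of −0.65 (−0.72 to −0.58), and Ppp1r3b, which targets a phosphatase to glycogen, had −0.64. None of these genes was past 2-fold, against 1.23% higher and 0.325% lower of all genes.

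In the list of lipolysis and lipid droplets 6 of 13 genes were above and 7 below 0, with a median of −0.09. The lipases Pnpla2 and Lipe had ratios of −0.16 and −0.13, the lipase inhibitor G0s2 −0.73, and the droplet coats Plin2 and Plin5 −0.67 and 0.52. Fatty acid oxidation had a median of −0.06 over 20 genes, the respiratory chain −0.16 over 31, triglyceride synthesis −0.15 over 13, and uptake of fatty acids from lipoproteins 0.11 over 16. In nuclei matched on UMIs the medians of lipolysis, fatty acid oxidation, the respiratory chain and triglyceride synthesis were on the other side of 0, at 0.16, 0.12, 0.14 and 0.06. Over sham, in all BA nuclei without matching, the median of uptake was −0.67. In the respiratory list the nuclear-encoded mitochondrial factors Tfam and Tfb2m had ratios of −0.93 and −0.73 and the adenine nucleotide carrier Slc25a5 −0.86. Angptl8, an insulin-induced inhibitor of lipoprotein lipase, was at 192, 37.0 and 101 CPM, a ratio of −0.92, and Lrp1, a lipoprotein receptor, had 0.90.

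Other lists showed medians between −0.25 for hypoxia-responsive genes and 0.17 for creatine and calcium cycling. Heat shock chaperones, which stressed cells induce, had −0.04 over 14 genes in BA and 0.27 in EC nuclei, and −0.59 in BA nuclei matched on UMIs. The unfolded protein response had −0.19 over 18 genes, the circadian clock −0.10 over 13, extracellular matrix −0.12 over 8, secreted factors −0.02 over 10, insulin signalling 0.02 over 17, breakdown of branched-chain amino acids −0.04 over 20, adipocyte transcription factors 0.07 over 19 and glucocorticoid-responsive genes 0.00 over 8. A general list of nuclear and cytoplasmic RNAs had 0.02 over 13. The sign of several of these medians turned with the processing. In nuclei matched on UMIs the unfolded protein response was at 0.09, the clock at 0.00 and breakdown of branched-chain amino acids at 0.10, and without the level filter extracellular matrix was at 0.31 and secreted factors at 0.26. The plot of gene lists shows that the interferon, acute-phase and fatty acid synthesis lists lie at its ends.

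**Figure D4:**
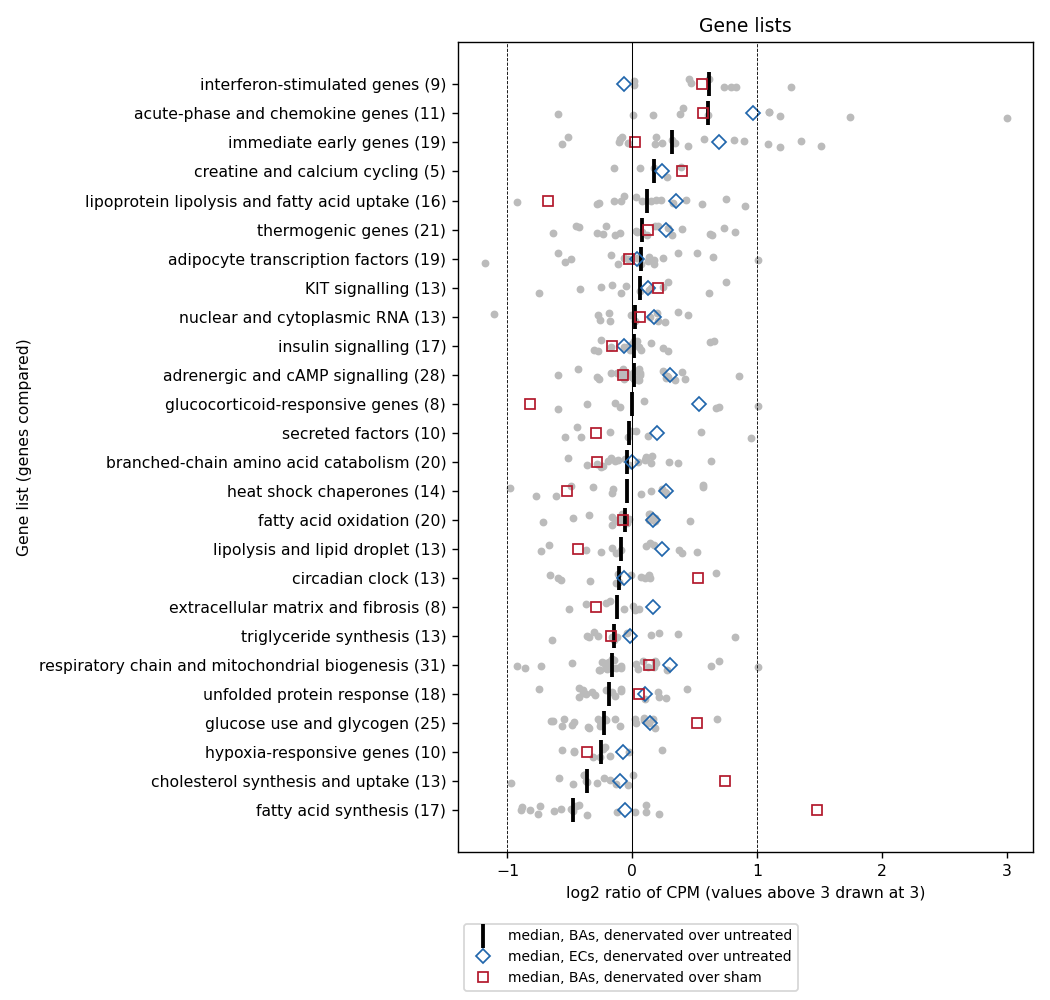
Log2 ratios of denervated over untreated BA nuclei for the compared members of 26 gene lists (grey points, numbers compared in parentheses), with the median in BA nuclei (black bars), in EC nuclei (blue diamonds) and of denervated over sham in BA nuclei (red squares), and dashed lines at 2-fold. Black bars run from −0.48 for fatty acid synthesis to 0.62 for interferon-stimulated genes, and the red square of fatty acid synthesis is at 1.48.

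Ratios in EC nuclei of the same 2 libraries were set beside those of BA nuclei. Of the 91 higher genes 85 had an EC ratio on the same side, against 64.0% of all 7377 genes. In 31 of the 91 the BA ratio was above and in 4 below the EC ratio with an interval that excludes 0, against 8.87% and 11.5% of all genes. The genes were chosen for their BA ratio, so nothing is read from the excess. Cxcl1, Rsad2 and Rpl39 had BA ratios above the EC ratios by 2.48 (0.55 to 4.98), 1.51 (1.17 to 1.85) and 1.12 (0.69 to 1.57). For Hp, Tex14 and Mt1 the difference ran the other way, at −1.41, −0.87 and −0.64. Of the 24 lower genes 19 had an EC ratio on the same side, and in 9 the BA ratio was below it by interval and in none above, with Rgs5 at −1.87, Dusp6 at −1.25 and Gapdh at −0.81. For Ucp3 the EC counts were too few to show a difference, with an interval of −1.5 to 2.55.

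**Figure D5:**
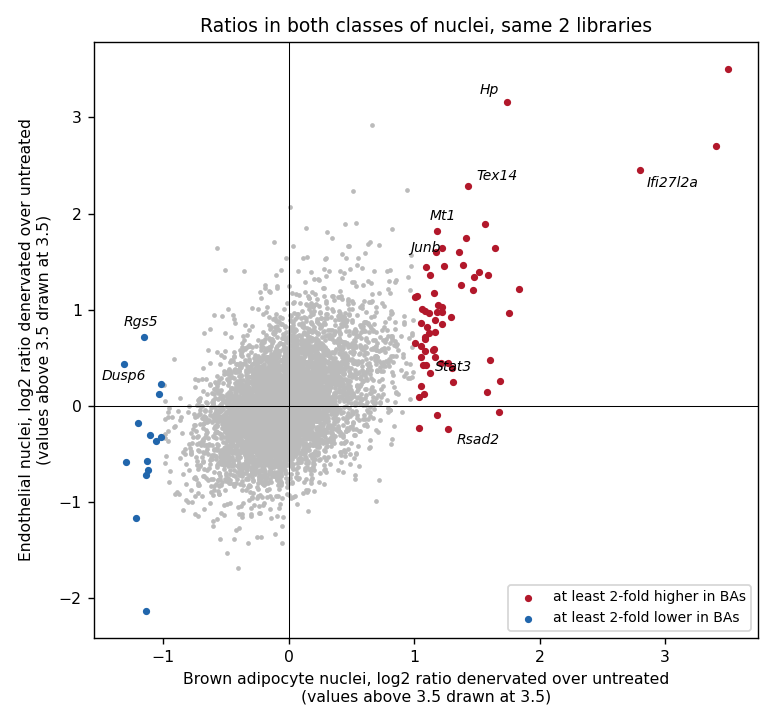
Log2 ratio of denervated over untreated in BA nuclei (horizontal) and EC nuclei (vertical) for 6156 genes with a mean of at least 20 CPM in both classes; red and blue points are genes at least 2-fold higher and lower in BA nuclei, and values above 3.5 are drawn at 3.5. Most red points lie above 0 on the vertical axis too, with Rsad2 at −0.24, and Rgs5 lies at −1.15 and 0.72.

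Markers of other cells in BA nuclei also differed between the libraries. Pericyte markers were lowest in the denervated library, as given with Rgs5, and endothelial markers, which the rule limits, summed to 246, 275 and 201 CPM in untreated, sham and denervated nuclei. Fibroblast markers summed to 18.3, 33.9 and 35.3 CPM, immune markers to 14.8, 10.7 and 26.0, and skeletal muscle markers to 13.9, 16.7 and 21.0. Red blood cell genes summed to 53.9, 149.5 and 132 CPM, and Hba-a1 and Hba-a2, of the 91 higher genes, had ratios of 1.58 and 1.69 in BA nuclei, where both passed the minimum level only through the denervated library, and 0.15 and 0.26 in EC nuclei. Smooth muscle markers were at 14.1, 35.3 and 14.7 CPM and Schwann cell markers at 24.7, 20.5 and 22.1. White adipocyte markers were at 0 by the rule in BA nuclei. In EC nuclei, where they were not limited, they summed to 42.5, 154 and 147 CPM in untreated, sham and denervated. The part of all these other cells in the ratios above was not tested.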

How the data were processed

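Nuclei of mouse BAT were profiled in 3 libraries, 1 per condition. What the authors deposited are raw UMI counts, whole numbers for each gene in each barcode, made per the file headers with the BD Rhapsody pipeline 1.9 for nuclei on GRCm38 with GENCODE vM19. The labels' processing notes name Seurat 4.0.6 and GRCh38, and a header is missing from the sham table. The steps of the study that remove debris and free RNA were not repeated, so both stay in the values.

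Nuclei were chosen from marker UMIs as described above. UMIs without mitochondrial genes were summed per class and library and scaled to CPM. Of 21794 genes in both tables, 7388 had a mean of at least 20 CPM over the untreated and denervated BA nuclei, and 7377 were compared after 11 genes of the rule were left out. Ratios are log2 of denervated over untreated CPM, with no pseudocount; a library at 0 was set to 3 counts, which makes the ratio a bound. Intervals are 95%: exact Poisson for CPM, Clopper-Pearson for shares, conditional binomial for ratios and MOVER for differences of ratios. They cover counting error only. Past the fold means a log2 ratio of 1 or more, or −1 or less, and no test was made. Shares were computed after thinning each nucleus to 500 UMIs, which left out 92 of the untreated, 104 of the sham and 315 of the denervated BA nuclei, and 1358, 2094 and 1030 of the EC nuclei. Free RNA is the sum over barcodes with fewer than 200 detected genes.

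The members, the gene lists and the alternatives were chosen with earlier results of these data known. The genes named were, with a mean of at least 50 CPM and without Gm and Rik symbols, the 10 highest and the 10 lowest ratios. To these were added members of the lists past 2-fold, at most 6 per list, and Ucp1, Kit, Adrb3, Fasn, Scd1, Acly and Acaca. This gave 38 genes. Other genes were chosen after their values were seen, as were the ranges of UMIs per nucleus. The alternatives varied the minimum of detected genes (500), the mitochondrial limit (10%), the marker sums, the weighting and thinning of nuclei, matching on UMIs per nucleus, centring on the median, ambient RNA, the level filter, heat shock UMIs, and the comparison library. The ratios and their intervals were tried on gene sums simulated with Poisson counting error alone. That simulation held no spread between nuclei and no choice of nuclei by the rule, so it cannot show how the intervals fare with these. Gene spans come from GENCODE vM21 on GRCm38. Python 3.11.15, numpy 2.4.6, scipy 1.17.1, pandas 2.3.3 and matplotlib 3.10.9 were used.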

Additional observations from a re-analysis of the deposited data

Results flagged for a closer look

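Rgs5, the pericyte marker, and Rsad2, the interferon-stimulated gene, lay on opposite sides of 0 in BA and EC nuclei of the same 2 libraries. Rgs5 had a log2 ratio of denervated over untreated of −1.15 in BA nuclei and 0.72 in EC nuclei. Rsad2 had 1.27 in BA nuclei and −0.24 in EC nuclei. With 1 library per condition the difference was not tested, and the intervals of the differences, −2.13 to −1.61 and 1.17 to 1.85, cover counting error only.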

How the results depend on the processing

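With the sham library as the comparison, 419 genes were at least 2-fold higher and 644 lower, with the level filter set on those libraries, instead of 91 and 24, and some named genes changed sign. Of those past 2-fold Ifi27l2a went to −0.27, Cp to −0.21, Zbtb16 to −2.48, Fosb to −2.34, Zfp36 to −0.75, Dusp6 to 1.62 and Bhlhe41 to 1.74, and of the others Kit went to 2.26, Acly to 2.06, Fasn to 1.48 and Adrb3 to −1.54. Without a level filter the counts were 2963 and 709 of 19761 genes, which include those with few UMIs. With a mean of at least 100 CPM they were 23 and 3 of 2265 genes, beside 7377 genes in the main setting. The cause of these differences was not tested. Taking the mean over nuclei of each nucleus' own CPM gave 95 higher and 44 lower genes. Thinning to 500 UMIs gave 110 higher and 63 lower genes, and the cause was not tested. Matching nuclei on UMIs gave 75 higher and 28 lower genes, which shared 56 of the 91 and 7 of the 24, moved Cyr61 to −0.12, and left 9 list medians below 0 instead of 15 of 26, and the cause was not tested. The other settings gave 78 to 107 higher genes and 20 to 33 lower ones. The share of ambient RNA subtracted came from endothelial genes that the rule limits, so it may be too small. Subtraction of ambient RNA gave no value for Cxcl1, nor did an adipocyte sum of at least 6 or leaving out nuclei with heat shock UMIs, which gave none for Fosb either, and a minimum of 100 CPM gave values for 22 of the 38 named genes. No paired analysis was possible because each condition has 1 library, and for the same reason no library could be left out of a condition. Depth limits genes with few UMIs, such as those in EC nuclei of the denervated library, and library, depth and condition cannot be told apart.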
